A study of Mus musculus with 9 samples.

Results

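The 10 genes described here encode cytosolic sensors of RNA and DNA and the proteins through which they signal. They were chosen by name as Ddx58, Ifih1, Dhx58, Mavs, Cgas, Tmem173, Aim2, Zbp1, Eif2ak2 and Tbk1, which is 10 of the 47937 genes in the count table. The rule uses names alone, but the list was drawn up with earlier results of these data known. All 10 had enough counts to be tested, among 15540 tested genes in all. At a 2-fold cutoff, Ifih1 and Zbp1 rose in both mutant genotypes, Ddx58 and Dhx58 rose in G9Gl, and Aim2 fell in S1S2 and rose in G9Gl. Ddx58 was also higher in S1S2, by less than 2-fold. Mavs, Cgas, Tmem173, Eif2ak2 and Tbk1 stayed within a 2-fold change in every comparison.

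Total RNA of mouse embryonic fibroblasts (MEFs) was sequenced from 3 libraries for each of 3 genotypes. In WT cells the H3K9 lysine methyltransferases (KMTs), which add methyl groups to lysine 9 of histone H3, are intact. S1S2 cells are knocked out for Suv39h1 and Suv39h2, and G9Gl cells are knocked out for G9a and Glp, the products of Ehmt2 and Ehmt1. The comparisons ask how the loss of either enzyme pair alters the transcriptome. Per the study's methods, all 3 genotypes share a conditional Eset1 allele, since the WT line is an Eset1-conditional MEF clone and both mutants were derived from it by CRISPR/Cas9. After the gene disruption, a construct with inducible Cre and puromycin resistance was introduced again, and lines were kept in puromycin. Whether the WT line also received it is not stated there, and its part cannot be told apart from genotype. A single clone per mutant was kept because the targeted proteins were absent on western blots, so genotype and clone cannot be told apart in any value below. The labels name neither a treatment nor the age of the embryos. The study's methods call the 3 libraries of a cell line biological replicates. For a mutant these are samples of a single clone, so the p-values measure the spread between samples of that clone.

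RIG-I, encoded by Ddx58, and MDA5, encoded by Ifih1, are helicases that bind viral or self double-stranded RNA in the cytosol and pass the signal to the mitochondrial adaptor Mavs. cGAS binds DNA and makes cGAMP, which activates STING, encoded by Tmem173, and both routes reach the kinase Tbk1 and the transcription factor Irf3, which switch on type I interferon and chemokine genes. Many of these sensors are themselves interferon-stimulated genes, and fibroblasts are a cell type in which the pathways have long been studied.

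Libraries held between 21319778 and 32157623 counts, so that 3 counts, the floor used here for detection, correspond to 0.0923 to 0.141 CPM, the unit of counts scaled to the size of the library. The common biological coefficient of variation was 5.36%. The floor covers counting error only, since reads that carry no molecular identifier are not separate molecules. All 8 fibroblast markers were above the floor in all libraries, and their summed level was 9790 to 11300 CPM in WT, 7370 to 7430 in S1S2 and 7720 to 8570 in G9Gl. Of these 8, Col3a1 (log2 -3.01), Col1a2 (-2.60), Pdgfra (-2.04), Thy1 (-1.29) and Pdgfrb (-1.14) fell in S1S2, and in G9Gl Pdgfra (-1.85) and Pdgfrb (-1.34) fell and Thy1 (2.94) rose, while Col1a1, Vim and Fn1 were called in neither. Of the targeted genes, Suv39h1 RNA was lower in S1S2 (log2 fold change -1.36) and Ehmt2 and Ehmt1 RNA were lower in G9Gl (-1.20 and -1.04), whereas Suv39h2 RNA was higher in S1S2 (0.70, under the 2-fold cutoff). The clones were selected on protein, so the level of a transcript does not test the label. Levels are averages over all cells of a library, in which fewer expressing cells and less RNA per cell cannot be told apart.

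RefSeq start-site windows, from 250 bases before to 50 bases after the start of transcription (GRCm38.p6), were found by symbol for 7 of the 10 genes. They were searched on both strands for short motifs of interferon-responsive promoters. The core of the interferon-stimulated response element (ISRE), searched as GAAANNGAAA, occurred in 3 of the 7 windows, those of Ddx58, Ifih1 and Eif2ak2, and in 3.44% of all 32851 windows. The core of the gamma-activated site (GAS), searched as TTCNNNGAA, occurred in 1 of the 7 windows and in 8.3% of all windows. The windows of these 3 genes are shown because they hold a match, in capitals. The Aim2 window is shown because the gene fell in S1S2 and rose in G9Gl. It holds no match to either motif, but lies inside the annotated gene (173350879 to 173466040). For Aim2 only this internal start was searched, not the 5′ end of the annotated gene. Each is printed 5′ to 3′ on the strand of its gene: Ddx58 at chr4:40239776-40240075 (minus strand), Ifih1 at chr2:62646206-62646505 (minus strand), Eif2ak2 at chr17:78882523-78882822 (minus strand) and Aim2 at chr1:173420354-173420653 (plus strand).
Ddx58: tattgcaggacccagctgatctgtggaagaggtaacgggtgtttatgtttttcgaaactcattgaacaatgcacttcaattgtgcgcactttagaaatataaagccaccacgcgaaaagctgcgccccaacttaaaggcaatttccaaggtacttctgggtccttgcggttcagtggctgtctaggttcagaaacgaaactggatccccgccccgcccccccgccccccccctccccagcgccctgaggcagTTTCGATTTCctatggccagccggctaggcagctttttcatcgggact
Ifih1: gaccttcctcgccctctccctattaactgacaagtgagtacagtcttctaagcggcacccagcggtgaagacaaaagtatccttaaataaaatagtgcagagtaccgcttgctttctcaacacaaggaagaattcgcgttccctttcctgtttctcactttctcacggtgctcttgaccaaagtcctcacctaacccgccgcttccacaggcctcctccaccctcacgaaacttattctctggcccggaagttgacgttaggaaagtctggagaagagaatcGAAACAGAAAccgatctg
Eif2ak2: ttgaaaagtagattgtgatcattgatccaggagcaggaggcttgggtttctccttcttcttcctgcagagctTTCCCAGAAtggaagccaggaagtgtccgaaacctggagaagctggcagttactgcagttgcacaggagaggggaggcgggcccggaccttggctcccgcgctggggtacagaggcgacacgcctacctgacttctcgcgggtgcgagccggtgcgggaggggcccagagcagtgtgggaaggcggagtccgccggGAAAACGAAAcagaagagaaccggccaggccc
Aim2: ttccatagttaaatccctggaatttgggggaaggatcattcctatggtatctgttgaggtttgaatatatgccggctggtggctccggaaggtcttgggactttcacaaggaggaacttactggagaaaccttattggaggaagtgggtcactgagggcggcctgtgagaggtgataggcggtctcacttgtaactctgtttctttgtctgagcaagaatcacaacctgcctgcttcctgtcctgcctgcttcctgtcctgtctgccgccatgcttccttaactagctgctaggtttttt
In the Ddx58 window the match lay 3 to 12 bases after the start and on the opposite strand, in Ifih1 it lay 33 to 42 bases after it, and in Eif2ak2 19 to 28 bases after it. The Eif2ak2 window also held the GAS core at positions -178 to -170 from the start. A match describes the letters of the window and is no evidence of factor binding. The windows of Mavs, Cgas and Tbk1 held neither motif. No window was found under the symbols Dhx58, Zbp1 and Tmem173, and Tmem173 was not looked up under its other symbol, Sting1.

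In the first comparison, S1S2 against WT, 3 of the 10 sensor genes were called, 2 higher and 1 lower. Called genes had an adjusted p no higher than 0.01 and differed at least 2-fold, where the adjusted p is that of the edgeR quasi-likelihood test over all tested genes. By the same rule 9.0% of all tested genes were called (4.66% higher and 4.34% lower). The median log2 fold change of the 10 genes was 0.20, beside -0.00 over all tested genes. In the second comparison, G9Gl against WT, 5 of the 10 were called and all 5 were higher, whereas 10.2% of all tested genes were called (6.77% higher and 3.40% lower). Here the median was 0.96, beside -0.01 over all tested genes. Both comparisons share the WT libraries and are given side by side. Between the mutants, 2 of the 10 were called, both higher in G9Gl, beside 13.1% of all tested genes (7.97% higher and 5.08% lower), and the median log2 difference was 0.19, beside 0.00 over all tested genes.

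**Figure D1:**
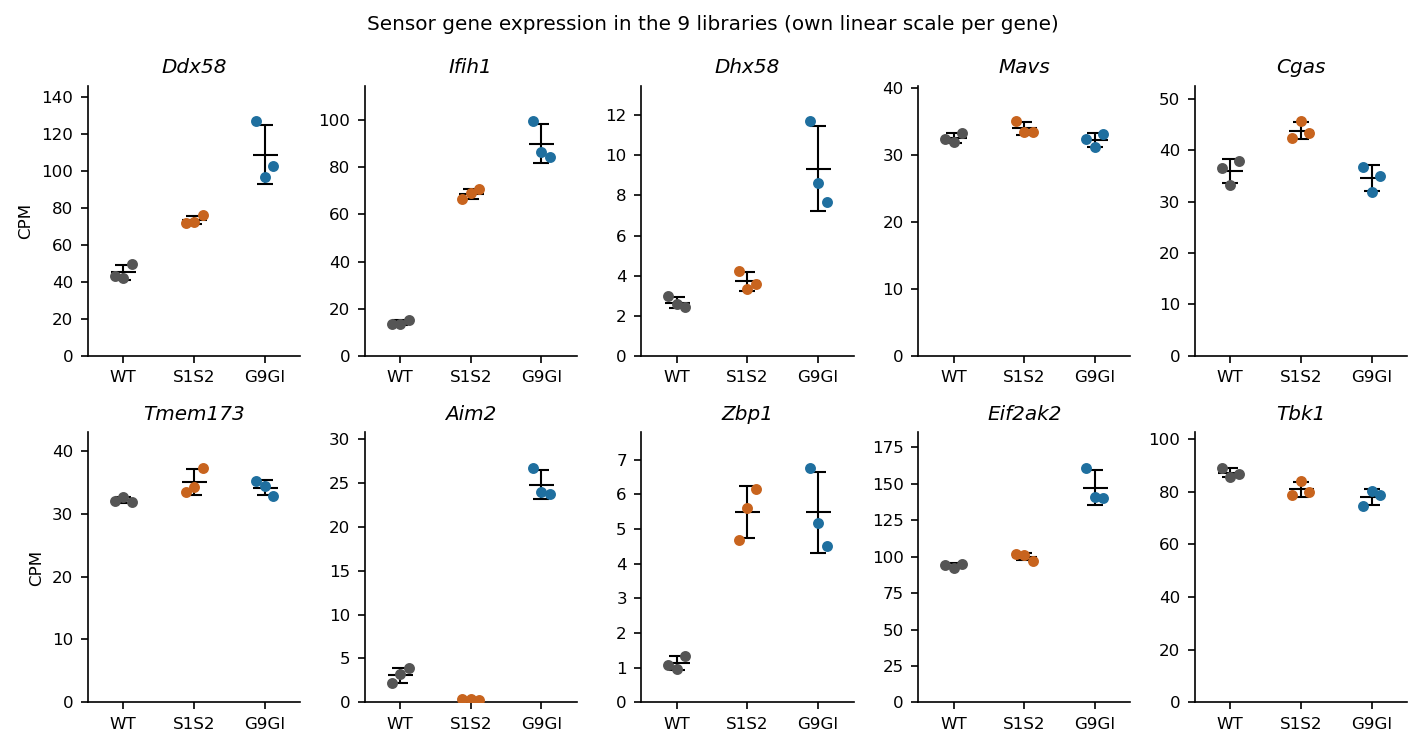
Expression of the 10 sensor genes in CPM, with an own linear axis from 0 for each gene. Points are the 3 libraries of each genotype, and bars give the mean and SD. Ifih1 lies between 13.5 and 15.2 CPM in WT and between 66.4 and 99.5 CPM in the mutants, and Aim2 is at most 0.414 CPM in S1S2 and at least 23.7 CPM in G9Gl.

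Ddx58 (chromosome 4, 40203773 to 40239828, minus strand, GRCm38) encodes RIG-I, the sensor of short double-stranded RNA with a 5′ triphosphate. Its level was 43.5, 42.4 and 50 CPM in the WT libraries, 71.7, 72.6 and 76 CPM in S1S2, and 127, 96.9 and 103 CPM in G9Gl. The 3 genotypes did not overlap, and G9Gl was highest and the most variable (45.3 ± 4.12, 73.4 ± 2.3 and 109 ± 15.7 CPM, SD, n = 3 each). By the test, Ddx58 rose in G9Gl by 1.26 on the log2 scale (standard error, SE, 0.139, adjusted p = 8.83e-10). In S1S2 the log2 fold change of 0.70 (SE 0.078, adjusted p = 2.57e-06) was below the 2-fold cutoff. Standard errors are taken from the spread of log2 CPM between libraries.

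Ifih1 (chromosome 2, 62595798 to 62646255, minus strand) encodes MDA5, which binds long double-stranded RNA. The 3 WT libraries measured 13.7, 13.5 and 15.2 CPM, the S1S2 libraries 66.4, 69 and 70.8 CPM, and the G9Gl libraries 99.5, 86.3 and 84.2 CPM. Every mutant library was above every WT library, and every G9Gl library was above every S1S2 library. Ifih1 rose 4.87-fold in S1S2 (log2 2.28, SE 0.063, adjusted p = 7.64e-14) and 6.37-fold in G9Gl (log2 2.67, SE 0.094, adjusted p = 4.78e-15). The difference between the mutants, 0.39 on the log2 scale with adjusted p = 4.56e-05, was below the 2-fold cutoff. Among all tested genes, 1.96% had a larger log2 fold change than Ifih1 in S1S2 and 3.21% in G9Gl.

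Both helicases were higher in both mutants, but in different proportions. Per kilobase of the longest annotated transcript, the level of Ifih1 was 0.221 ± 0.00458 times that of Ddx58 in WT, 0.663 ± 0.00945 times in S1S2 and 0.59 ± 0.0376 times in G9Gl (SD, n = 3 each). Against the adaptor Mavs, the ratio of the levels per kilobase of Ifih1 was 0.242 in WT, 1.13 in S1S2 and 1.56 in G9Gl. The same ratio for Ddx58 was 1.09, 1.7 and 2.65. These ratios depend on the length assigned to each gene, and per kilobase of all annotated exonic bases those of Ifih1 to Mavs were 0.177, 0.828 and 1.14, so which of both genes was higher in S1S2 turned with the length. The ratio of Ddx58 to Mavs in WT turned likewise, to 0.655. The relative change of a ratio between genotypes does not depend on it.

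Dhx58 (chromosome 11, 100694884 to 100704271, minus strand) encodes LGP2, a related helicase that lacks the signalling domains and modulates the other RIG-I-like receptors. It was the least abundant of the 3 helicases per kilobase in every genotype, with 2.98, 2.58 and 2.42 CPM in WT, 4.23, 3.35 and 3.57 CPM in S1S2, and 11.7, 8.62 and 7.67 CPM in G9Gl. The G9Gl libraries stood clear of the others, and the first of them was the highest. Dhx58 rose in G9Gl by 1.81 on the log2 scale against WT (SE 0.201, adjusted p = 5.40e-08) and by 1.33 against S1S2 (SE 0.206, adjusted p = 1.80e-06). The call against S1S2 was lost when the test was made against a 2-fold change (glmTreat of edgeR, adjusted p = 0.0726). The S1S2 value of 0.47 (SE 0.131, adjusted p = 0.0422) did not pass. Dhx58os, an antisense gene, overlaps 141 of the 3272 exonic bases of Dhx58, and reads there cannot be told apart without strand.

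Mavs (chromosome 2, 131234063 to 131248025, plus strand) encodes the adaptor to which RIG-I and MDA5 bind. It measured 32.4, 32 and 33.4 CPM in WT, 35.1, 33.5 and 33.5 CPM in S1S2, and 32.5, 31.2 and 33.2 CPM in G9Gl. All 9 libraries thus lay between 31.2 and 35.1 CPM. The log2 fold change was 0.06 in S1S2 (SE 0.029, adjusted p = 0.374). In G9Gl it was -0.01 (SE 0.032, adjusted p = 0.858), so the adaptor was not called where its sensors were.

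Cgas (chromosome 9, 78430526 to 78443237, minus strand) encodes the DNA sensor that makes cGAMP. Its level was 36.5, 33.3 and 37.9 CPM in WT, 42.3, 45.6 and 43.4 CPM in S1S2, and 36.8, 31.9 and 34.9 CPM in G9Gl. The S1S2 libraries lay above all others, while WT and G9Gl overlapped. None of the differences reached 2-fold, with log2 values of 0.29 in S1S2 against WT (SE 0.063, adjusted p = 0.00121), -0.06 in G9Gl against WT (SE 0.081, adjusted p = 0.513) and -0.34 in G9Gl against S1S2 (SE 0.067, adjusted p = 2.27e-04). Of the 75-base stretches of its transcripts, 3.05% also occur in the pseudogene Gm8093, and those reads could be split between both genes.

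Tmem173 (chromosome 18, 35733679 to 35740554, minus strand) encodes STING, the receptor of cGAMP. It was measured at 32, 32.7 and 31.9 CPM in WT, at 33.5, 34.3 and 37.3 CPM in S1S2, and at 35.2, 34.4 and 32.8 CPM in G9Gl. The mutant libraries lay above the WT libraries by a small margin, with log2 fold changes of 0.12 (SE 0.049, adjusted p = 0.0909) and 0.08 (SE 0.031, adjusted p = 0.244). Neither passed the test.

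Aim2 (chromosome 1, 173350879 to 173466040, plus strand) encodes a DNA sensor of the PYHIN family that assembles an inflammasome with the adaptor ASC and caspase-1. The level was 2.18, 3.21 and 3.9 CPM in WT (71, 97 and 121 counts), 0.414, 0.401 and 0.282 CPM in S1S2 (9, 11 and 6 counts), and 26.7, 23.9 and 23.7 CPM in G9Gl (761, 665 and 725 counts). The genotypes were far apart, with S1S2 at the bottom, WT in the middle and G9Gl at the top. Aim2 fell by 3.05 on the log2 scale in S1S2 (SE 0.281, adjusted p = 8.78e-08) and rose by 3.00 in G9Gl (SE 0.246, adjusted p = 5.97e-12). It was the only sensor gene called in opposite directions, and the mutants differed 66.3-fold (log2 6.05, SE 0.156, adjusted p = 9.32e-14). Among all tested genes, 1.2% had a larger rise from S1S2 to G9Gl.

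Zbp1 (chromosome 2, 173206612 to 173218923, minus strand) encodes a sensor of Z-form nucleic acids that can start necroptosis through Ripk3. It was rare in WT, at 1.08, 0.959 and 1.35 CPM, and was measured at 4.69, 5.61 and 6.16 CPM in S1S2 and at 6.77, 5.17 and 4.5 CPM in G9Gl. All mutant libraries exceeded all WT libraries, and the mutants overlapped. The rise in S1S2 was 2.28 on the log2 scale (SE 0.179, adjusted p = 5.05e-08). In G9Gl it amounted to 2.27 (SE 0.219, adjusted p = 3.43e-08). Between the mutants the log2 difference was -0.00 (adjusted p = 0.987).

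Eif2ak2 (chromosome 17, 78852564 to 78882573, minus strand) encodes PKR, the kinase that is activated by double-stranded RNA and blocks translation through eIF2α. It was among the most abundant of the sensor genes, at 94.3, 92.3 and 95.1 CPM in WT, 102, 101 and 97.2 CPM in S1S2, and 161, 141 and 140 CPM in G9Gl. The G9Gl libraries were separated from the others, and the S1S2 libraries lay just above WT. In G9Gl the log2 difference of 0.65 (SE 0.069, adjusted p = 1.37e-08) did not reach 2-fold, and in S1S2 it was 0.09 (SE 0.025, adjusted p = 0.162). Antisense gene models (Gm26637 and n-R5s29) overlap 174 and 47 of its 5113 exonic bases.

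Tbk1 (chromosome 10, 121546455 to 121586787, minus strand) encodes the kinase that phosphorylates Irf3 downstream of both Mavs and STING. Its level was 89.1, 85.6 and 86.9 CPM in WT, 78.7, 84.2 and 79.9 CPM in S1S2, and 74.4, 80.4 and 78.8 CPM in G9Gl. Both mutants lay slightly below WT, with log2 values of -0.11 (SE 0.034, adjusted p = 0.068) and -0.16 (SE 0.037, adjusted p = 0.00756), and neither reached the fold cutoff. For chromosome 10 as a whole the S1S2 median over its tested genes was -0.15 on the log2 scale, and with the chromosome medians removed the S1S2 value of Tbk1 was 0.05.

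**Figure D2:**
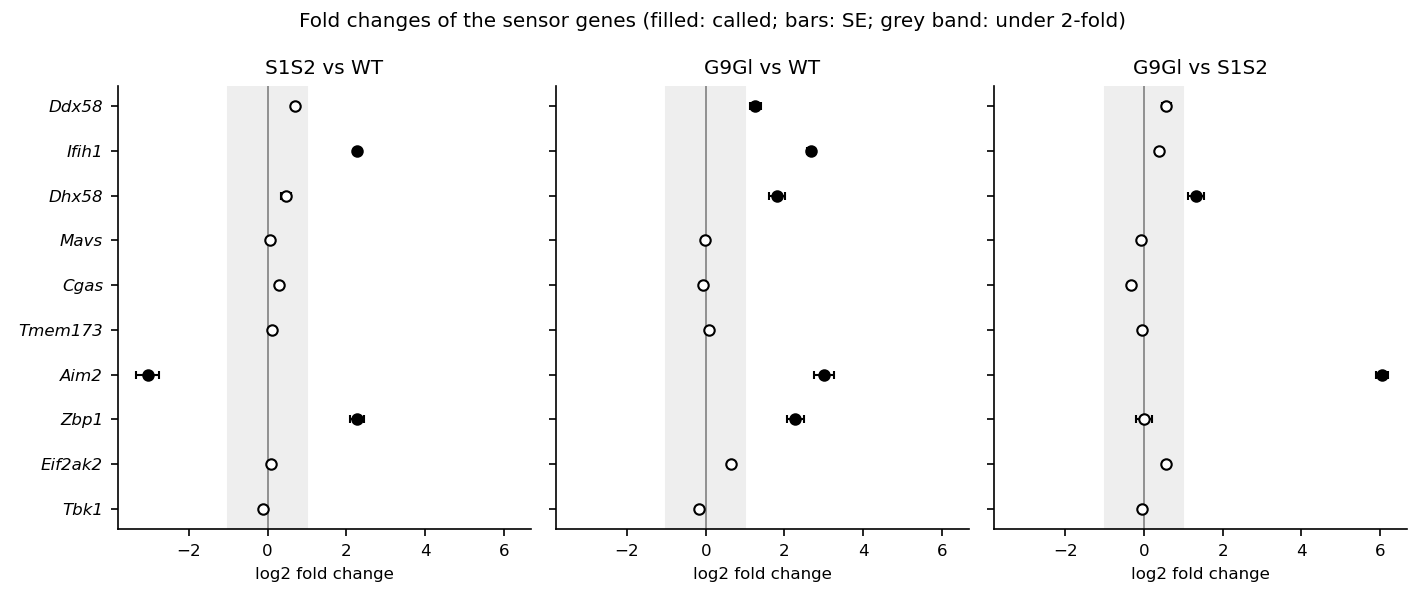
Log2 fold changes of the 10 sensor genes in the 3 comparisons, with SE bars. Filled points are called genes, and the grey band marks changes under 2-fold. Aim2 lies at -3.05 in S1S2 and at 3.00 in G9Gl, whereas Ifih1 and Zbp1 lie above 2.2 in both mutants.

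When the adjusted p limit of 0.01 was applied without a fold limit, 5 of the 10 genes differed in S1S2 against WT (4 higher, 1 lower), 7 in G9Gl against WT (6 higher, 1 lower) and 6 between the mutants (5 higher in G9Gl, 1 lower). The same limit was passed by 37.9%, 35.0% and 42.6% of all tested genes, of which 20.3%, 19.0% and 21.6% were higher and 17.6%, 16.0% and 21.1% lower. With a limit of 0.05 the numbers of sensor genes were 6, 7 and 6, beside 48.9%, 45.9% and 53.3% of all tested genes. All 10 genes had non-overlapping libraries between S1S2 and WT (8 higher and 2 lower, against 56.0% of all tested genes, 28.5% higher and 27.5% lower). Between G9Gl and WT 8 had them (7 higher and 1 lower, against 52.8%, 27.3% higher and 25.5% lower), and between the mutants 7 had them (5 higher and 2 lower in G9Gl, against 60.8%, 30.5% higher and 30.3% lower).

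The order of the transcript levels differed between the genotypes. Per kilobase of transcript, WT cells held most of Tbk1 (28.8 CPM per kb), then Eif2ak2 (21.8), Tmem173 (14), Ddx58 (11.7), Mavs (10.7), Cgas (8.86) and Ifih1 (2.58), followed by Dhx58 (1.1) and Aim2 (1.09), whose libraries overlapped, and Zbp1 (0.34). In S1S2, Ifih1 moved up to the fifth place at 12.6 CPM per kb and Aim2 to the last at 0.129. Mavs (11.1) and Cgas (10.8) overlapped there, as did Zbp1 (1.65) and Dhx58 (1.54). In G9Gl the upper places were taken by Eif2ak2 (34.2), Ddx58 (28) and Tbk1 (25.7), where each overlapped the next, and by Ifih1 (16.5). Aim2, at 8.72 CPM per kb, overlapped Cgas (8.53). With all annotated exonic bases as the length, several places moved. Ddx58 (6.43 CPM per exonic kb) lay below Mavs (9.75) and Cgas (8.7) in WT, where Aim2 (0.885) and Dhx58 (0.813) swapped places and still overlapped. In S1S2 Ifih1 (8.42) was in the seventh and Ddx58 (10.4) in the fifth place, where Ddx58 overlapped Cgas (10.6) and Mavs (10.2). In G9Gl Tbk1 (19.9) lay above Ddx58 (15.5) and Tmem173 (12.5) above Ifih1 (11), and Aim2 (7.07) lay below Cgas (8.37). Of these G9Gl pairs, Tmem173 and Ifih1 overlapped.

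**Figure D3:**
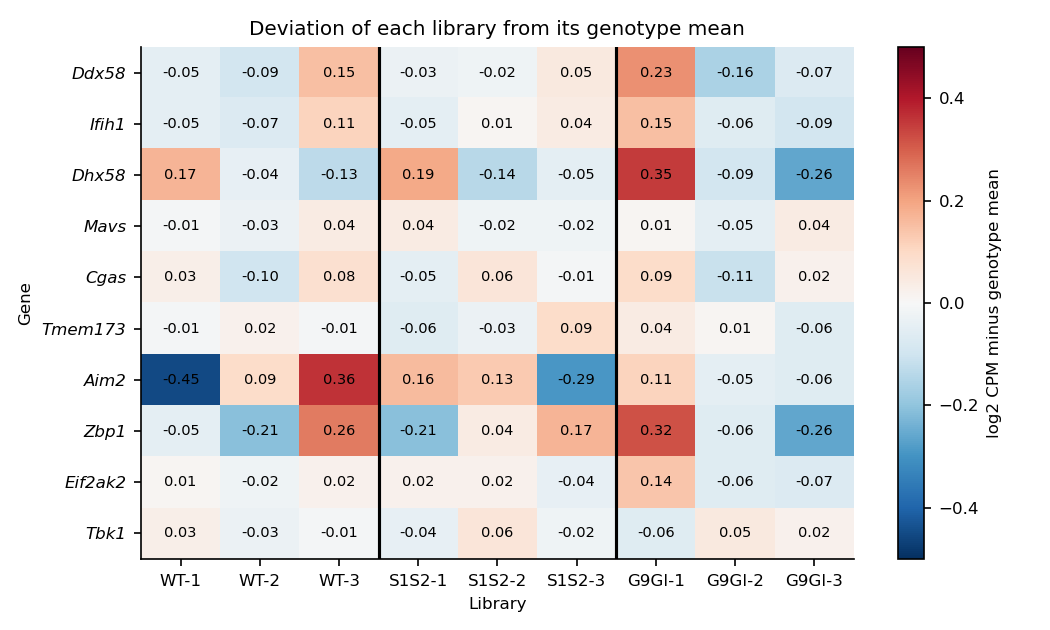
Deviation of each library from the mean of its genotype, in log2 CPM, for the 10 sensor genes. Red marks libraries above and blue libraries below the mean of the genotype. The first G9Gl library is above its mean for Dhx58 by 0.35, Zbp1 by 0.32 and Ddx58 by 0.23, and it is below it for Tbk1.

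Some libraries of a genotype ranked high or low across the sensor genes together. The first G9Gl library was the highest of the 3 for 8 of the 10 genes, all but Mavs and Tbk1, whereas it was the highest for 35.2% of all tested genes. The third WT library was the highest of its genotype for 7 of the 10 genes (39.5% of all tested genes), and the second was the lowest for 7 (35.9%). The S1S2 libraries were the highest for 4, 2 and 4 of the 10 (33.1%, 30.5% and 36.4%), and the first was the lowest for 6 (34.1%). These ranks ignore size, and Eif2ak2 in the third WT library was above its mean by only 0.02 on the log2 scale. With each library left out in turn, the numbers of called sensor genes stayed at 3, 5 and 2 in the 3 comparisons, and the log2 fold change of Ddx58 in G9Gl ranged from 1.14 to 1.34 and that of Dhx58 from 1.61 to 1.93.

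Genes with the most similar profiles were sought for each called sensor by the root mean square (RMS) difference of centred log2 CPM over the 9 libraries, among 10847 tested genes with a mean normalized count over 100. The profile of Ddx58 was closest to those of Arap2, Rnf213 and Sigirr, at an RMS difference of 0.09 each. For Ifih1 the nearest were Ifi204 (0.23), Zbp1 (0.24) and Rtp4 (0.26), and for Zbp1 they were Isg15 (0.14), Ifih1 (0.24) and Siglecg (0.27). Dhx58 was nearest to Irf9 (0.14), which encodes the DNA-binding subunit of the interferon-activated factor ISGF3, and to Ank and Cited2 (0.18 each). Aim2 had no neighbour as close, with AU021092 at 0.28, B3galt1 at 0.33 and Alcam at 0.34. Genes this close to the Aim2 profile are lower in S1S2 and higher in G9Gl by the choice itself.

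Aim2 lies in the cluster of PYHIN genes on chromosome 1, whose other members were looked up after the values of Aim2 had been seen. Within 500 kb of the gene on either side, 36 annotated genes were in the table, 21 had no count in any library and 7 besides Aim2 were tested: Ifi206, Ifi209, Ifi208, Ifi204, Mndal, Ifi211 and Ifi203. Ifi206 and Ifi208 had 0 counts in WT, and Ifi209 and Mndal were too low in WT and S1S2 to pass the filter there, so these 4 were tested through their G9Gl counts and could hardly have been called lower. The mean levels of Ifi206, Ifi208 and Ifi209 in G9Gl were 0.542, 1.52 and 3.98 CPM. Ifi203 was 0.509 CPM in WT, 1.58 CPM in S1S2 and 19.4 CPM in G9Gl (log2 1.60 and 5.23 against WT). Mndal had means of 0.286, 0.293 and 3.89 CPM in WT, S1S2 and G9Gl. Ifi211, the most abundant in WT at 8.32 CPM, had log2 values of 0.22 and 0.85 and was called in neither. Ifi204 had means of 2.97, 10.5 and 17.8 CPM in WT, S1S2 and G9Gl and was called higher in both mutants. The genes of this family resemble each other, and 13.2% of the 75-base stretches of Ifi204 occur in Ifi211, Mndal or Ifi207, so that its reads could be split, whereas none of those of Aim2 occur in another gene.

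Other genes of the sensing pathways were taken from 5 lists with 72 genes. By the rule used for the sensors, 11 of them were called in S1S2 and 10 in G9Gl, beside 9.0% and 10.2% of all tested genes. Of the 20 genes of RIG-I-like receptor signalling, all tested, 1 rose and 1 fell in each mutant. Irf7, an interferon-induced factor that amplifies interferon transcription, measured 1.78 ± 0.444 CPM in WT, 8.57 ± 1.43 CPM in S1S2 and 22.5 ± 5.64 CPM in G9Gl. It thus rose by 2.26 on the log2 scale in S1S2 (adjusted p = 1.59e-07) and by 3.65 in G9Gl (adjusted p = 5.31e-11). Irf3, the factor present before any infection, had log2 fold changes of 0.09 (adjusted p = 0.231) and 0.25 (adjusted p = 0.00198), under the fold cutoff. Tbkbp1, which encodes a binding partner of Tbk1, fell by 1.08 on the log2 scale in S1S2, and Nlrx1, whose product restrains Mavs, fell by 1.43 in G9Gl. The list medians were 0.06 and 0.10 on the log2 scale.

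Of the 18 genes of cGAS-STING and inflammasome signalling, 16 were tested. In S1S2, 1 rose and 3 fell, beside 4.66% higher and 4.34% lower among all tested genes. In G9Gl 3 rose and none fell, beside 6.77% higher and 3.40% lower. Casp1, 1 of these 3, was tested only through its G9Gl counts and could not have been called lower. Ifi204, a PYHIN gene, rose in both (log2 1.83 and 2.58). Enpp1, which encodes the hydrolase of cGAMP, fell by 1.47 on the log2 scale in S1S2 and rose by 1.03 in G9Gl. In S1S2, Il18, a cytokine precursor cut by caspase-1, fell by 2.17 and Xrcc5, a subunit of the Ku heterodimer that binds DNA ends, by 1.33. Casp1, the protease of the Aim2 inflammasome, had 0 counts in all WT and S1S2 libraries and 95, 87 and 105 counts in G9Gl (3.3 ± 0.155 CPM), which is at least 34.3-fold higher than the floor of 3 counts per library in WT and at least 25.5-fold higher than that in S1S2. Gsdmd, the pore protein cut by caspase-1, measured 56.9 ± 4.37 CPM in WT, 37.5 ± 0.616 in S1S2 and 72.7 ± 3.33 in G9Gl, with log2 values of -0.60 and 0.35 under the fold cutoff. Pycard, which encodes the adaptor ASC, had 0 counts in all 9 libraries. Trex1 also had 0, but 100% of its exonic bases lie within Atrip, so no level was read from it. The median of this list was -0.03 in S1S2 over the 15 genes above the floor and 0.29 in G9Gl, a median that Casp1 exceeds also at its bound.

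Of 16 genes around PKR and Zbp1, 15 were tested and none was called in S1S2 or G9Gl, beside 9.0% and 10.2% of all tested genes. By the adjusted p limit of 0.01 alone, 1 was higher and 2 were lower in S1S2, and 2 were higher and 2 lower in G9Gl, beside 37.9% and 35.0% of all tested genes. Adar, the editor of double-stranded RNA that limits MDA5 and PKR, had log2 values of 0.06 (adjusted p = 0.309) and 0.79 (adjusted p = 2.08e-10), the second under the fold cutoff. Ripk3, the kinase downstream of Zbp1, had 0 to 3 counts per library and was not tested. Of 8 further helicases, Ddx60, an interferon-stimulated helicase, rose in both mutants (log2 2.56, adjusted p = 3.90e-09, and log2 4.84, adjusted p = 7.04e-14), and the other 7 were not called. List medians were 0.06 and 0.05 for the PKR and Zbp1 genes and -0.09 and -0.02 for the helicases.

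Of 10 genes that respond to sensor signalling, 4 were tested and all 4 rose in both mutants by the rule used for the sensors. Among all tested genes, 4.66% in S1S2 and 6.77% in G9Gl were called higher. The list was drawn up with earlier results of these data known. The chemokine gene Cxcl10 was 9.39 ± 0.966 CPM in WT, 133 ± 3.49 in S1S2 and 37 ± 1.22 in G9Gl, and Ifit1, which encodes a binder of foreign RNA ends, was 10.4 ± 0.93, 91.3 ± 7.32 and 43.1 ± 8.89 CPM. Both were lower in G9Gl than in S1S2 (log2 -1.85, adjusted p = 2.02e-14, and log2 -1.08, adjusted p = 7.67e-08), whereas Ifih1 and Ddx58 had log2 differences of 0.39 and 0.57 in the opposite direction. Ccl5 (log2 3.70 and 3.24) and the ubiquitin-like modifier Isg15 (2.47 and 2.27) rose in both mutants. The interferon genes Ifnb1, Ifna4, Ifnl2 and Ifnl3 had 0 counts in all 9 libraries, Tnf had at most 1 count and Il6 at most 10 counts per library. Transcripts of these 4 interferon genes were therefore not detectable at this depth, and other interferon genes were not examined.

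**Figure D4:**
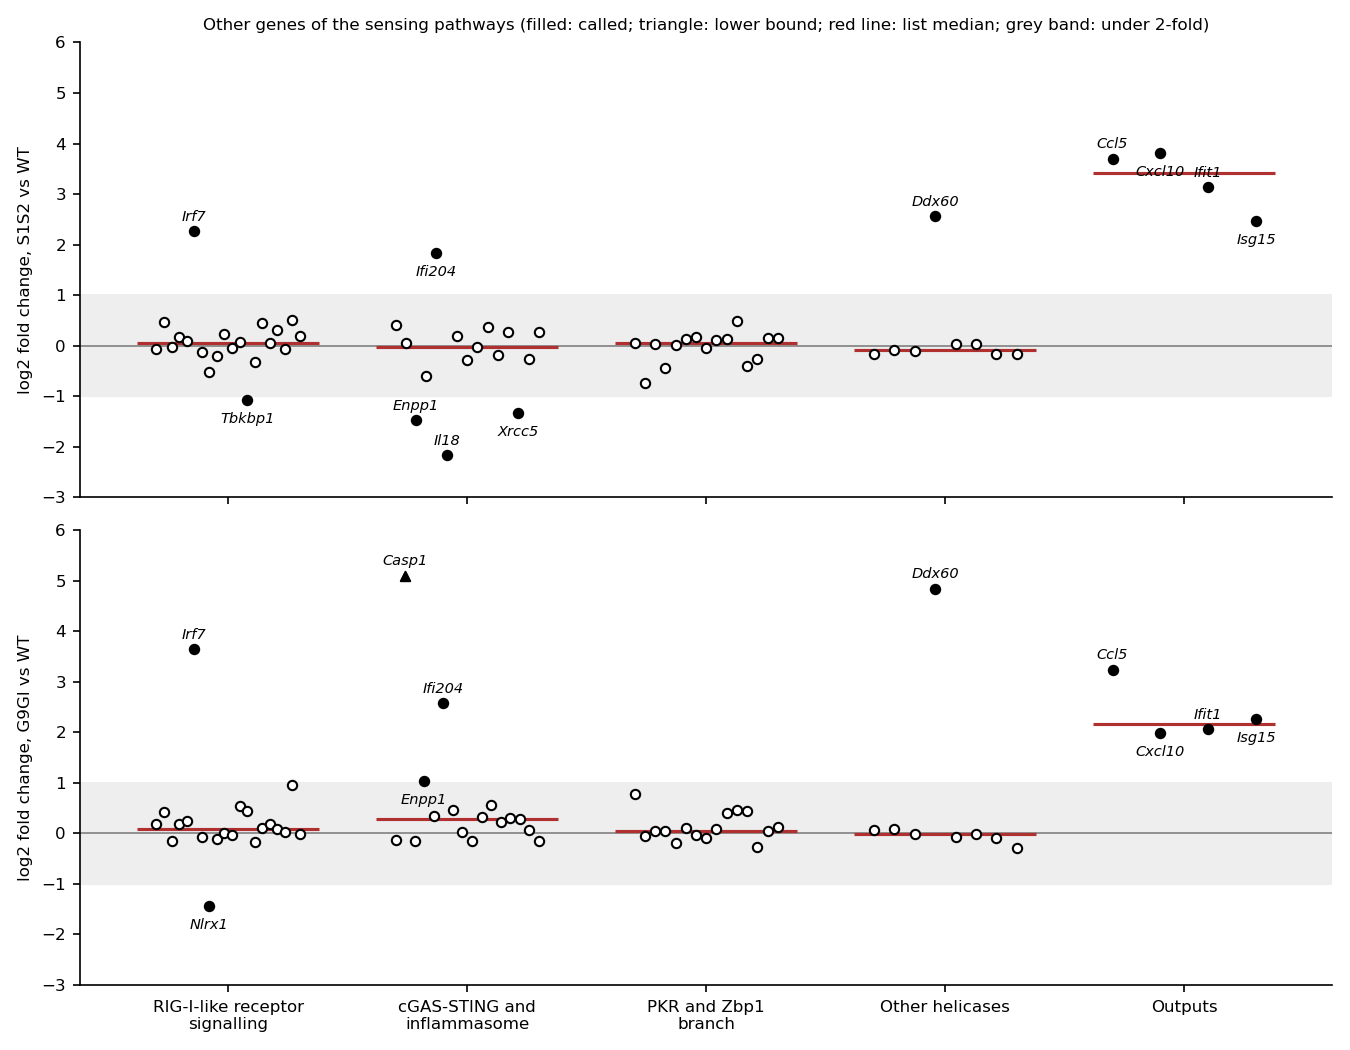
Log2 fold changes of the tested genes of the 5 pathway lists against WT, in S1S2 (top) and G9Gl (bottom). Filled symbols are called genes, the triangle is the lower bound for Casp1, and red lines are list medians, which are 3.42 in S1S2 and 2.17 in G9Gl for the outputs.

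Markers of other cell types were low in all libraries. The 7 leukocyte markers summed to 2.8 to 3.13 CPM in WT, 2.85 to 3.76 in S1S2 and 4.49 to 6.04 in G9Gl, and 4, 4 and 2 of them were at 0 in all libraries of the genotype. Adgre1 and Cd3e had 0 counts in all 9 libraries and Ptprc had at most 4. Of the leukocyte markers, Cd74 was called higher in G9Gl (log2 1.77, adjusted p = 4.95e-06). The 6 endothelial and epithelial markers summed to 0.331 to 0.548 CPM in WT, 1.79 to 1.9 in S1S2 and 0.754 to 2.04 in G9Gl, and Krt5 was at 0 in all 9 libraries. Of these, Kdr was called higher in S1S2 (0, 0 and 2 counts in WT and 28, 28 and 29 in S1S2, adjusted p = 8.65e-07). Cdh5 was called higher in G9Gl (0 counts in all WT libraries and 43, 14 and 31 in G9Gl, adjusted p = 4.26e-06), at least 10.5-fold above the floor of 3 counts per library. Each of both was tested only through the genotype in which it was high, so its direction was fixed by the filter, and the other 4 markers were not tested. The leukocyte sum was thus higher in G9Gl, where Aim2 and Casp1 rose, largely through Cd74 (0.951 CPM in WT and 3.25 in G9Gl). Cd14 was lower there (2.01 and 1.77), and Csf1r, Ptprc and Itgam were slightly higher. The endothelial and epithelial sum was higher in both mutants, where Ifih1 and Zbp1 rose. In G9Gl this was largely through Cdh5 (0 and 1.01). Epcam (0.266 and 0.0683) and Pecam1 (0.128 and 0.0925) were lower in G9Gl, and Kdr and Cdh1 slightly higher. The part of these markers in these results was not tested.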

How the data were processed

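RNA was sequenced from WT, S1S2 and G9Gl MEFs, 3 libraries each. The authors deposited a table of unnormalized whole-number read counts for Ensembl genes. Per the study's methods, stranded total RNA libraries were sequenced as 75 bp pairs, and the reads were trimmed with cutadapt, aligned with STAR and counted with TEtranscripts, which can share multiply aligned reads between similar genes. The submitters' processing notes name STAR 2.5.2b, DESeq2 and GRCm38. The annotation release and the use of strand in counting were not given in the sources used here. It was assumed that these methods cover the libraries analysed.

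Symbols and positions came from GENCODE M21 by gene identifier (47310 of 47937 genes matched), and start-site windows from RefSeq. Genotypes were compared with edgeR 4.0.16 under R 4.3.3 (filterByExpr, TMM, glmQLFit, glmQLFTest) in a fit of all 9 libraries with genotype as the only term. Adjusted p-values are Benjamini-Hochberg values over 15540 genes. CPM were scaled by TMM factors, and log2 CPM used a prior count of 2. Libraries held 21319778 to 32157623 counts. Replicate libraries differed beyond counting noise in every pair (chi-square per degree of freedom 2.63 to 25.1), so none was counted as a duplicate.

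The sensor genes, pathway lists and markers were chosen with earlier results of these data known. Named genes are the 10 sensors, the called genes of the pathway lists (at most 6 per list) with Ifnb1, Irf3, Irf7 and Adar, the 3 most similar genes of each called sensor, and the targeted genes. Genes named outside this rule, among them the neighbours of Aim2, Gsdmd, Pycard, Trex1, Ripk3, the other output genes and the cell type markers, were added after their values were seen. A further leukocyte marker is not reported here, and the marker counts were made without it. The alternatives were DESeq2 1.42.0, 2 other normalizations, 2 other filters on low counts, 3 other cutoffs, fits of 6 libraries, a replicate block, removal of chromosome medians and leaving out each library. Lengths from all annotated exonic bases were added after seeing the data. The scripts were tested on simulated data.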

Additional observations from a re-analysis of the deposited data

Results flagged for a closer look

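For Dhx58, the effect of the G9a/Glp loss exceeded that of the Suv39h1/Suv39h2 loss by 1.33 on the log2 scale. It was looked at again because the direct contrast of the mutants tests this difference and passed (edgeR quasi-likelihood test, adjusted p = 1.80e-06). Against a 2-fold change (glmTreat) it did not pass (adjusted p = 0.0726). All 3 G9Gl libraries (7.67 to 11.7 CPM) were above all 3 S1S2 libraries (3.35 to 4.23 CPM).

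For Aim2, the same difference between the effects was 6.05 on the log2 scale (adjusted p = 9.32e-14), and here the effects had opposite signs. The S1S2 libraries held 6 to 11 counts of Aim2 and the G9Gl libraries 665 to 761.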

How the results depend on the processing

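The counts of called sensor genes (3 in S1S2 and 5 in G9Gl, both against WT, and 2 between the mutants) kept their range of 3 to 3, 5 to 5 and 2 to 2 when each library was left out, and those of the pathway genes (11, 10 and 9) ranged from 10 to 11, 9 to 11 and 9 to 11. With at least 10 counts in every library Aim2 was not tested, and 2, 4 and 1 sensor genes were called. With glmTreat 1 was called there, since Dhx58 (1.33) had an adjusted p of 0.0726. An adjusted p of at most 0.05 without the fold cutoff gave 6 sensor genes in S1S2 and 6 between the mutants, and 42, 32 and 40 pathway genes, beside 48.9%, 45.9% and 53.3% of all tested genes. At 0.01 without that cutoff there were 5 and 6 sensor genes, and 31, 28 and 28 pathway genes, beside 37.9%, 35.0% and 42.6%.

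The difference of Zbp1 between the mutants changed sign around 0, to 0.00 with DESeq2 and 0.01 with no filter or at least 10 counts, and it ranged from -0.18 to 0.13 with a library left out. Left-out libraries also turned the sign of Mavs in G9Gl against WT (-0.03 to 0.01) and of Tmem173 between the mutants (-0.07 to 0.01), and removing chromosome medians turned that of Tbk1 in S1S2 (0.05). None of these values was called.

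Libraries with the same replicate number did not deviate together (correlations from -0.069 to 0.124), so the numbers do not pair them. With the replicate block, 3, 5 and 2 sensor genes and 11, 10 and 9 pathway genes were called. Depth limits the values of Aim2 in S1S2 (6 to 11 counts).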
